A study of Mus musculus with 3 samples.

Results

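*Dali* is a long non-coding RNA that is transcribed next to *Pou3f3* and is expressed in neural tissue, and CHART-Seq recovers the DNA that is cross-linked to such an RNA by capturing it with short biotinylated oligonucleotides. The *Dali* peaks described here are those that flank promoters: their midpoint lay at least 1 kb and less than 10 kb from the nearest transcriptional start site (TSS) of a protein-coding transcript. 291 of the 1427 deposited peaks (20.4%) met this rule, which used only position on mm9 and no measured value. Another 360 peaks lay within 1 kb of a TSS, and 322 peaks inside and 454 peaks between protein-coding genes lay 10 kb or more away. The peaks came from 3 pull-downs from N2A cells, a mouse neuroblastoma cell line that was grown in serum-containing medium and received no treatment, with about 300000000 cells and 810 pmol of capture oligonucleotides in each pull-down. All 3 pull-downs were labelled *Dali* but used different mixtures of the 10 capture oligonucleotides, and the labels do not say which pull-down received which mixture. The peaks were called by the authors both against input DNA and against a *lacZ* capture. The deposited list holds 1 score for each peak and none for a single pull-down or read, so neither sequencing depth nor variation among the pull-downs can be given. Intervals below are 95% intervals over peaks (Wilson for shares, order statistics for medians, exact Poisson for densities). Peaks are not replicates, these intervals cover counting only, and no difference from other peaks or from the genome was tested.

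The stretch from 1 to 10 kb around a TSS holds promoter-proximal enhancers, the first introns of many genes, neighbouring small RNA genes and insulator sites. Insulators in mammals are bound by CTCF, a zinc finger protein that reads a long GC-rich DNA word and anchors chromatin loops. AP-1, a dimer of Fos and Jun proteins, reads a short word that is common in enhancers. The sequences below show the CTCF word, in capitals, in the 8 highest scoring peaks that held it without a mismatch. All were read 5′ to 3′ from mm9 on the strand that carries the word.

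*Fam92b*, chr8:122702952-122703004, plus strand: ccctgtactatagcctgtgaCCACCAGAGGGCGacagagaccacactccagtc
*Fam136a*, chr6:86314567-86314619, minus strand: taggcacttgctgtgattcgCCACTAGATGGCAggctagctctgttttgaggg
*D10Jhu81e*, chr10:77622865-77622917, minus strand: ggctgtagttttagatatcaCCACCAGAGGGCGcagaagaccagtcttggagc
*Xkr5*, chr8:18954166-18954218, plus strand: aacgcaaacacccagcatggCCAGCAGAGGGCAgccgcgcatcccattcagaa
*Tmem167b*, chr3:108357765-108357817, minus strand: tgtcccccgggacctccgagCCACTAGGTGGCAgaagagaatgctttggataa
*Ctrc*, chr4:141409589-141409641, minus strand: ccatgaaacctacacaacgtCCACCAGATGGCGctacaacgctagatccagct
*Npas4*, chr19:4981933-4981985, plus strand: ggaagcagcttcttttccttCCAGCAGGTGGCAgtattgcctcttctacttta
*Mb*, chr15:76859955-76860007, minus strand: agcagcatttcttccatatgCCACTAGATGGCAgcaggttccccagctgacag

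The highest score of the 8 was 54.02, for the peak upstream of *Fam92b*, and the lowest was 25.18, for the peak near *Mb*, which encodes myoglobin. The peak near *Npas4*, an activity-induced transcription factor of neurons, scored 25.53 and lay 8021 bp downstream of the TSS, between genes. The peak near *Tmem167b* scored 28.84 and also held the start of a small RNA gene, described below. In 4 of the 8 peaks, those near *Fam92b*, *D10Jhu81e*, *Xkr5* and *Npas4*, the centre of the word lay less than 40 bp from the midpoint of the peak.

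Peaks were unevenly placed around the TSS. 181 of the 291 peaks lay upstream of the nearest TSS (62.2%, interval 56.5 to 67.6%) and 110 lay downstream. Of the 789661 windows of 500 bp whose centre lies in the same distance range, 47.2% were upstream. The upstream share was 65.8% in peaks within 1 kb of a TSS. In peaks 10 kb or more away it was 60.8% between genes and 29.5% inside genes. From 1 to 2 kb, 41 peaks lay upstream and 11 downstream, which is 1.60 peaks per Mb (1.15 to 2.17) against 0.401 per Mb (0.200 to 0.718). From 2 to 5 kb the densities were 0.819 per Mb upstream (56 peaks) and 0.479 per Mb downstream (36 peaks). From 5 to 10 kb they were 0.909 per Mb upstream (84 peaks) and 0.595 per Mb downstream (63 peaks). The upstream density was the higher in each of the 3 distance ranges, and the intervals of the 2 sides did not overlap from 1 to 2 kb.

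**Figure D1:**
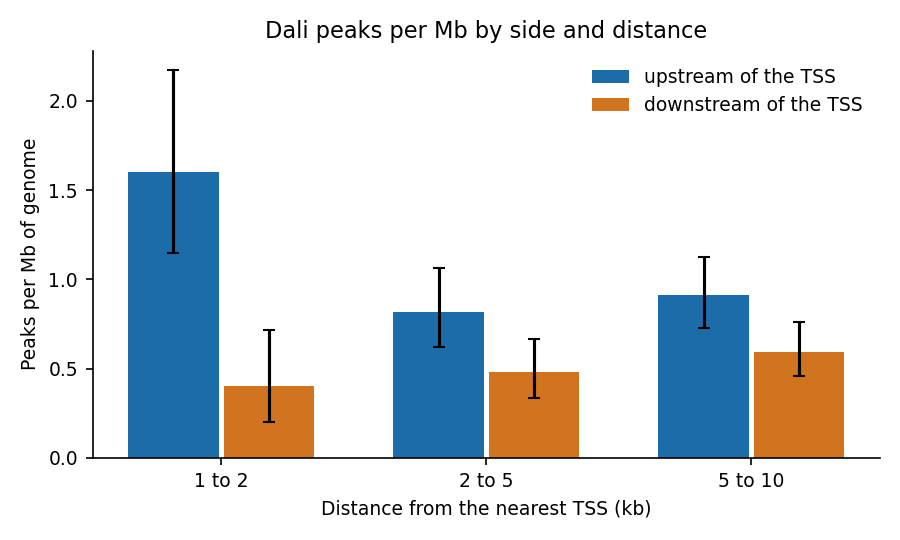
Peaks per Mb of mm9 (y axis) in 3 ranges of distance from the nearest protein-coding TSS (x axis, kb), with upstream peaks in blue, downstream peaks in orange and exact Poisson 95% intervals as bars. The upstream bar is the taller in each range, and the gap is widest from 1 to 2 kb, at 1.60 against 0.401 peaks per Mb.

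With both sides together, density fell from 6.12 peaks per Mb within 1 kb of a TSS to 0.981 (0.732 to 1.29) from 1 to 2 kb. It was 0.641 (0.517 to 0.786) from 2 to 5 kb and 0.742 (0.627 to 0.872) from 5 to 10 kb, close to the 0.585 per Mb from 10 to 50 kb, and 0.245 per Mb farther out. Beyond 2 kb from the TSS the density no longer fell steadily, and the intervals of the 2 outer ranges overlapped. Just outside the threshold on the near side lay peaks of *Slc3a2* (996 bp, score 107.32), *Sik1* (978 bp, score 21.41) and *2010003K11Rik* (961 bp, score 45.57), and just inside it peaks of *Sv2c* (1004 bp, score 10.04), *Cnga3* (1043 bp, score 73.85) and *Fmnl1* (1068 bp, score 10.20). On the far side, *Rnf103* (9931 bp, score 19.13), *Cln6* (9984 bp, score 19.55) and *Cd83* (9997 bp, score 9.16) were just inside, and *Smug1* (10030 bp, score 14.96), *4931440F15Rik* (10090 bp, score 8.09) and *Angpt4* (10099 bp, score 10.65) just outside.

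The midpoint of 162 peaks lay between protein-coding genes (55.7%, interval 49.9 to 61.3%) and that of 115 in an intron (39.5%, 34.1 to 45.2%). Over all 1427 peaks the shares were 55.8% and 35.7%. Among the windows at these distances the order was the other way, with 41.6% between genes and 51.4% in introns. Of the remaining 14 of the 291 peaks, 6 had the midpoint in a 3′ UTR and 4 in a coding exon. For 2 it was in a 5′ UTR and for 2 in an exon of a non-coding transcript. The 4 in coding exons were near *Kctd17*, *Nkx2-2*, *Rusc1* and *Cep170* (named after their values were seen). The midpoint was inside the gene of the nearest TSS for 113 peaks and only inside another protein-coding gene for 16. Of the 110 downstream peaks, 42 (38.2%) were in the first intron of a transcript that starts at the nearest TSS. For 37 peaks (12.7%) more than 1 protein-coding gene had a TSS within 10 kb, so the nearest gene is an assignment by distance alone.

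Scores ran from 7.18 to 88.66, with a median of 18.2 (16.9 to 19.3) and quartiles of 13.9 and 25.4. The unit of the score is not given in the sources used here, so it serves only as a rank. 131 of the 291 peaks (45.02%) scored at or above the median of all peaks, 19.11. Median scores were 17.04, 17.42 and 18.70 in the 3 distance ranges, with overlapping intervals of 15.25 to 21.07, 15.40 to 19.78 and 17.25 to 20.28. The intervals of the medians upstream (18.39, 16.87 to 20.18) and downstream (17.3, 16.2 to 19.3) overlapped as well. The peaks were 231 to 1544 bp wide, with a median of 611 bp (557 to 638). The widest were upstream of *Enc1* (1544 bp, score 21.07), which encodes an actin-binding protein of neural tissue, *Phyh* (1505 bp, score 28.83), which encodes a peroxisomal enzyme of fatty acid oxidation, and *C77080* (1489 bp, score 22.37).

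**Figure D2:**
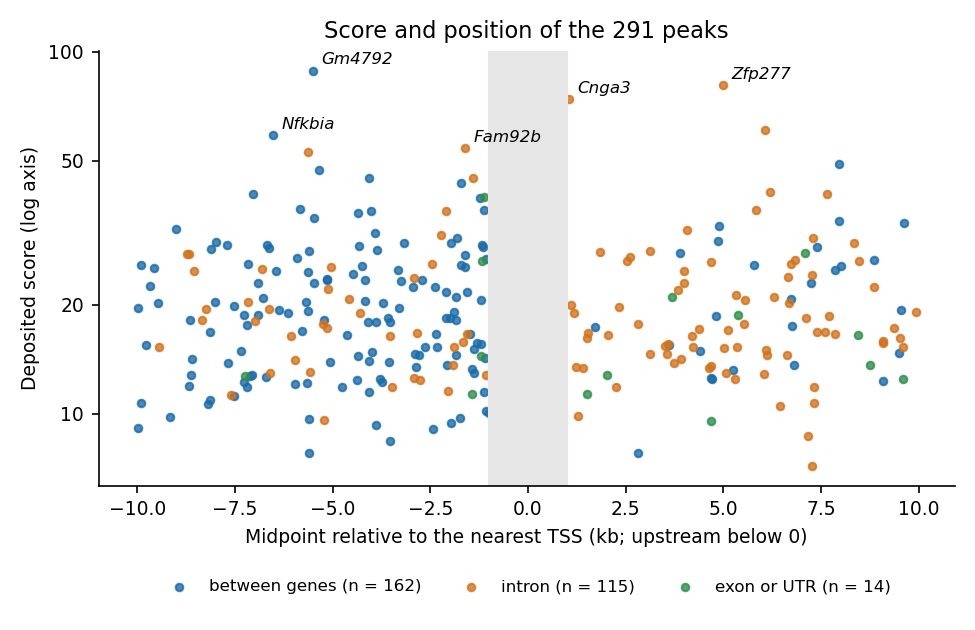
Each of the 291 peaks by the position of its midpoint relative to the nearest TSS (x axis, kb, upstream below 0) and its deposited score (y axis, log scale, unit not named), coloured by where the midpoint lies. High scores occur on both sides and at all distances, and the 3 highest are those of *Gm4792*, *Zfp277* and *Cnga3*.

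The 10 highest scores fell near genes of different kinds. The first, 88.66, belonged to a peak between genes at chr10:93766242-93767646, 5496 bp upstream of the predicted gene *Gm4792*, with a TSS of *Tmcc3* also in range. The next, 80.84, lay in intron 3 of *Zfp277*, a zinc finger gene, at chr12:41064695-41065286, 4997 bp downstream. The peak of *Cnga3*, which encodes a subunit of the cyclic nucleotide-gated channel of cone photoreceptors, scored 73.85 and lay in intron 1 at chr1:37276900-37277400. The peak of *Cep170*, which encodes a centrosomal protein, scored 60.71 and lay in intron 1 at chr1:178730911-178731448, 6075 bp downstream. The peak of *Nfkbia*, which encodes the inhibitor of NF-kappaB, scored 58.94 and lay between genes at chr12:56599849-56600489, 6535 bp upstream. Then came *Fam92b* (54.02), now named *Cibar2*, at chr8:122702379-122703599 in an intron of *Gm20388*, *Gm17601* (52.93) in an intron of *Kcnip3*, and *Zmat2* (48.95) between genes. The last 2 were *Rab42-ps* (47.12), 5354 bp upstream, and *Lphn1* (44.91), now named *Adgrl1*, an adhesion receptor of synapses, 4075 bp upstream. Of these 10 peaks, those near *Fam92b*, *Rab42-ps* and *Lphn1* held the CTCF word in their central 500 bp and 7 did not. Over all 291 peaks the share with the word was 24.1%, so nothing is read from this count.

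The CTCF word has 13 letters, was searched on both strands with at most 1 mismatch, and is given here by name because several of its letters are ambiguous. The study reported motifs matched to CTCF, AP-1, MAZ, Sp1, ETS, E-box, YY1, POU and homeodomain proteins in its full peak list. The peaks described here are part of that list, so an excess of such a word over windows is not independent evidence. The CTCF word was in the central 500 bp of 70 peaks (24.1%, interval 19.5 to 29.3%) and in 3.97% of all windows of that size 1 to 10 kb from a TSS. The lower quartile of peak width was 450.5 bp, and in peaks narrower than 500 bp this stretch runs past the called peak. Searched over the whole peak instead, the word was in 26.1% of peaks. Without a mismatch the word was in the central 500 bp of 26 peaks (8.93%, 6.17 to 12.8%) and in 0.280% of windows. The share was 15.4% (8.01 to 27.5%) from 1 to 2 kb, 23.9% (16.4 to 33.6%) from 2 to 5 kb and 27.2% (20.7 to 34.9%) from 5 to 10 kb, with overlapping intervals, while the share of windows hardly moved, from 3.77% to 4.01%. In peaks within 1 kb of a TSS it was 7.5%, and in peaks 10 kb or more away 17.39% inside and 18.7% between genes. The contrast with the windows was present on both sides of 50% GC. The word was in 28.0% of the 161 peaks with at least 50% GC in the central 500 bp and in 4.55% of such windows, and in 19.2% of peaks and 3.85% of windows below 50% GC.

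The 73 matches lay close to the middle of the peaks. Their median distance from the midpoint was 49.5 bp, and 49 of them (67.1%, 55.7 to 76.8%) lay within 100 bp of it, where matches spread evenly over 500 bp would give 125 bp and 40%. 36 of the 73 matches pointed towards the nearest TSS and 37 away from it. Peaks with the word had a median width of 478 bp (452 to 580), and those without it 638 bp (605 to 664). Their scores overlapped throughout, with medians of 18.37 and 17.96. Only 3 of the 70 peaks with the word were in the first intron of the nearest transcript (4.29%, 1.47 to 11.9%), against 39 of the 221 without it (17.6%, 13.2 to 23.2%).

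**Figure D3:**
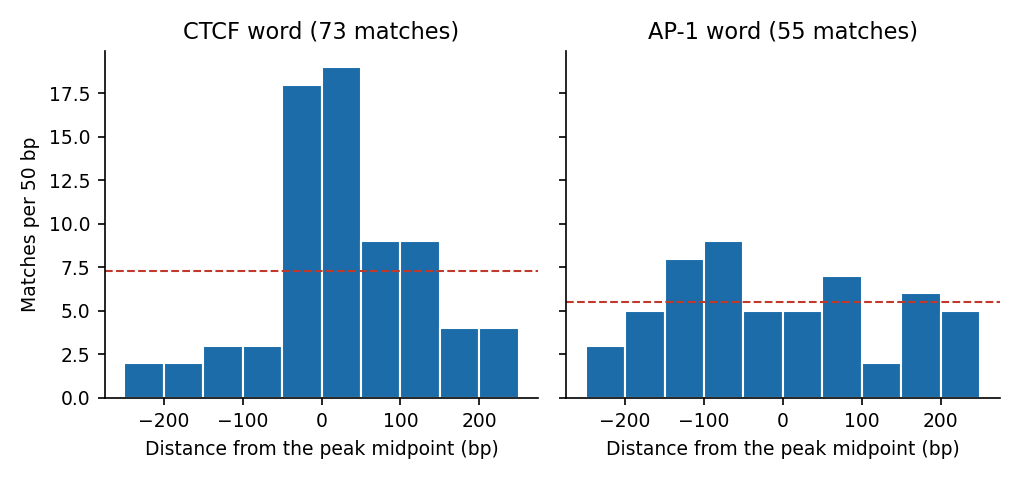
Matches of the CTCF word (left, 73 matches) and the AP-1 word (right, 55 matches) by the distance of the centre of the match from the midpoint of the peak (x axis, bp), counted in steps of 50 bp (y axis), with the dashed line at an even spread. The CTCF matches gather within 100 bp of the midpoint (67.1%), and the AP-1 matches are spread more evenly (47.3%).

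The AP-1 word, tgagtca, was in the central 500 bp of 49 peaks (16.8%, interval 12.98 to 21.56%) and in 8.18% of windows. As with the CTCF word, its share was lower in peaks within 1 kb of a TSS (6.11%) and was 23.3% inside genes and 19.4% between genes in peaks 10 kb or more away. Its 55 matches had a median distance of 105.5 bp from the midpoint. The CTCF and AP-1 words seldom shared a peak: 4 of the 70 peaks with the CTCF word also held the AP-1 word (5.71%, 2.24 to 13.8%), against 45 of the 221 without it (20.4%, 15.6 to 26.2%). 176 peaks (60.5%) held neither. The AP-1 word, in capitals, is shown for peaks in the coding sequence of *Nkx2-2*, a homeodomain factor of the ventral neural tube, and in an intron of *Arhgef7*, an exchange factor for Rac and Cdc42.

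*Nkx2-2*, chr2:147003552-147003598, plus strand: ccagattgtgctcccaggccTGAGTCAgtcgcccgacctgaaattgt
*Arhgef7*, chr8:11776086-11776132, plus strand: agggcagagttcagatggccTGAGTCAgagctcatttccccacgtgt

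The remaining words differed from the windows to varying degrees. The MAZ word, gggaggg, was in 73 peaks (25.1%, 20.5 to 30.4%) and 14.8% of windows, but in 32.3% of peaks and 29.9% of windows with at least 50% GC. The Sp1 word, cccgcccc, was in 10 peaks (3.44%, 1.88 to 6.21%), 1.64% of windows and 20.8% of the peaks within 1 kb of a TSS. With at least 50% GC it was in 4.97% of peaks and 4.89% of windows, and below 50% GC in 1.54% and 0.967%. The ETS word, ccggaag, was in 13 peaks (4.47%, 2.63 to 7.49%), 1.73% of windows and 22.5% of the peaks within 1 kb. Below 50% GC it was in 3.85% of peaks and 1.24% of windows, but with at least 50% GC in 4.97% and 4.11%. The E-box cacgtg was in 29 peaks (9.97%, 7.03 to 13.9%) and 5.75% of windows. With at least 50% GC it was in 13.7% of peaks and 8.39% of windows, but below 50% GC in 5.4% and 5.2%. The homeodomain core taatta was also in 29 peaks and in 14.1% of windows, but with at least 50% GC the order turned, with 7.45% of peaks and 3.69% of windows. The octamer atgcaaat, a word of POU proteins, was in 9 peaks (3.09%, 1.64 to 5.77%) and 3.30% of windows. It is not shown to be the POU motif that the study reported. The E-value given for that motif stands beside taatta in the study's motif list, matched there to homeodomain proteins. The octamer count therefore says nothing about the study's POU motif. The YY1 word, aagatggc, was in 10 peaks (3.44%, 1.88 to 6.21%) and 3.98% of windows. Runs of ca and ga repeats of 9 bases were in 23 peaks (7.90%) and 18 peaks (6.19%), against 10.6% and 5.24% of windows. A word present or absent in these windows is a match of letters, not a measured binding site.

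**Figure D4:**
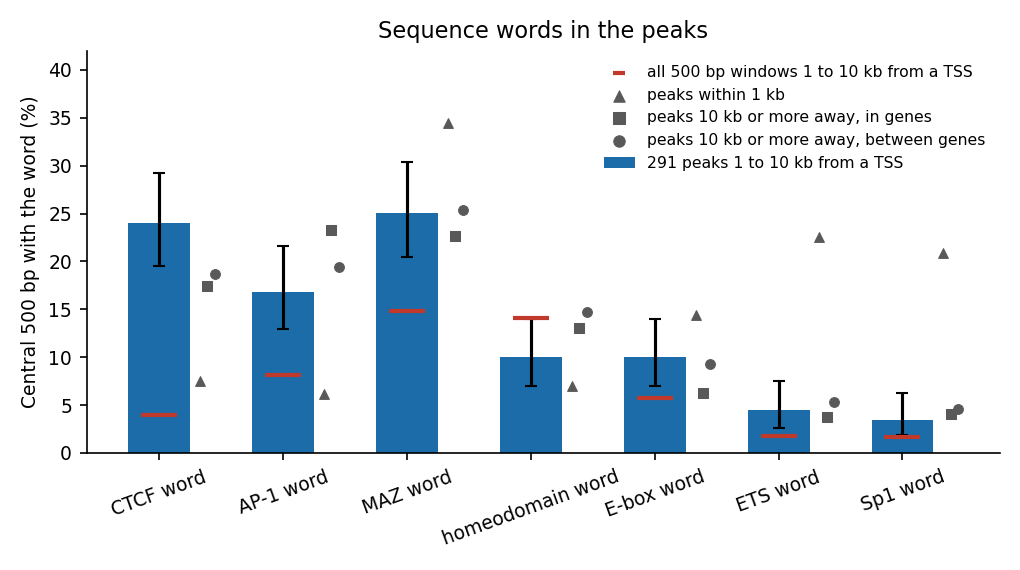
Share of peaks with each word in the central 500 bp (y axis, %) for the 291 peaks 1 to 10 kb from a TSS (bars, with Wilson 95% intervals), for all windows of 500 bp at these distances (red lines) and for the other peaks (grey symbols). The bar for the CTCF word stands at 24.1% against a line at 3.97%, and of the 7 words plotted only the homeodomain word, at 9.97%, has its bar below its line.

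GC content had a median of 50.4% (49.9 to 51.1%) and ranged from 37.3% to 67.6%. It was a median of 3.42 percentage points (2.47 to 4.18) above the mean of the flanks, regions of equal width 5 kb to either side of the peak, and was the higher for 209 of 290 peaks (72.1%). The flank towards the TSS had a median GC content of 47.4% and the flank away from it 46.1%. In peaks within 1 kb of a TSS the median difference from the flanks was 10.4 percentage points. CpG dinucleotides were scarce, with a median ratio of observed to expected of 0.245 (0.217 to 0.257) against 0.643 in the peaks within 1 kb.

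**Figure D5:**
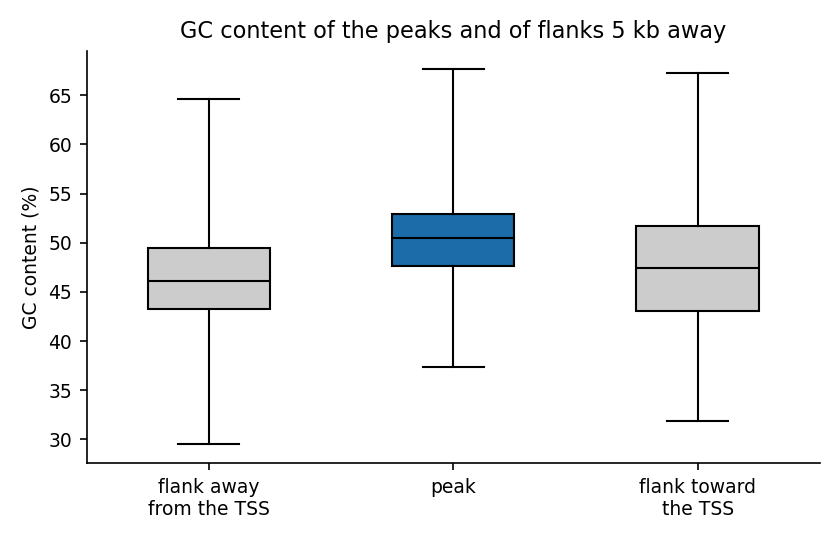
GC content (y axis, %) of the peaks and of flanks of equal width 5 kb away, on the side away from the TSS (left) and on the side of the TSS (right), with boxes at the quartiles, lines at the medians and whiskers at the lowest and highest value. The median is 50.4% in the peaks, 46.1% in the flank away from the TSS and 47.4% in the flank towards it. For peaks less than 5 kb from the TSS the right flank lies past the TSS.

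10 peaks (3.44%, 1.88 to 6.21%) met the usual criteria of a CpG island, a GC content of at least 50% and a CpG ratio of at least 0.6, against 55.3% of peaks within 1 kb of a TSS. On the central 500 bp, where windows can be set beside them, 16 peaks (5.50%, 3.41 to 8.74%) and 0.595% of windows met them. The 10 were near *Rab42-ps*, *Aurkb*, *Trim8*, *1110017D15Rik*, *Gm5531*, *Gnai2*, *Cln6*, *Rbp7*, *Zfp692* and *Hist2h2bb* (named after their values were seen). The peak of *Aurkb*, the kinase of the chromosomal passenger complex in mitosis, lay 3866 bp upstream at chr11:68855134-68855431, between genes, with a CpG ratio of 0.824 and a score of 28.30.

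Some peaks far from a protein-coding TSS lay at the start of a non-coding gene. 9 peaks (3.09%, 1.64 to 5.77%) had an annotated non-coding TSS within 1 kb, against 1.06% of windows, and in 6 of them that TSS was inside the peak. The share was 9.72% in peaks within 1 kb of a protein-coding TSS. In peaks 10 kb or more away it was 3.08% between genes and 1.86% inside genes. The peak assigned to *Rab42-ps* had its midpoint 12 bp from the TSS of *Snhg12*, a host gene of small nucleolar RNAs, with a score of 47.12 and a CpG ratio of 0.790. The peak assigned to *Tmem167b* had its midpoint 13 bp from the TSS of *Scarna2*, a small RNA of Cajal bodies, and the peak assigned to *Zmat2* 15 bp from that of a vault RNA gene. The midpoint was 46 bp from the start of the long non-coding RNA gene *Gm12976* (near *C77080*) and 91 bp from that of *A730011C13Rik* (near *Pi4kb*). Annotated U4, U5 and U6 spliceosomal RNA genes started 384 bp, 397 bp and 316 bp from the midpoints of the peaks of *Sirt4*, *Kif2c* and *Mst1r*, and a SNORA71 gene 335 bp from the midpoint of that of *Snhg11*. Of these 4 starts, that of U4 was inside the peak. These small RNA genes have near-identical copies in the genome, and only reads with a single reportable alignment were kept in the mapping, so reads that fit several copies were left out. The CTCF word in the *Snhg12* peak, with 1 mismatch, reads as follows.

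*Rab42-ps*, chr4:131864522-131864574, plus strand: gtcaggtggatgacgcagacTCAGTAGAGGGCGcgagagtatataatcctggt

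The 291 peaks were nearest to 275 of 22350 protein-coding genes (1.23%), which is the background for the gene lists that follow. *Ankrd6* and *Mtus1* had 3 peaks each and 12 genes had 2. *Mtus1*, which encodes a microtubule-associated tumour suppressor, had peaks with scores of 23.69, 20.40 and 14.50 at 2909 bp and 7163 bp upstream and 6621 bp downstream of its TSSs, all in introns of the gene. *Ankrd6*, which encodes an ankyrin repeat protein of Wnt signalling, had peaks with scores of 36.24 and 12.53 separated by 164 bp and a further one (9.44) near another TSS. Both peaks of *Slc4a8*, a sodium bicarbonate transporter of neurons, were strong (40.32 and 36.38) and lay 7048 bp and 4013 bp upstream. 10 pairs of neighbouring peaks of this kind had midpoints less than 10 kb apart, and both peaks of every such pair had the same nearest gene. In 8 cases (2.75%, 1.40 to 5.33%) a promoter peak, less than 1 kb from a TSS, was assigned to the nearest gene too: *Capg*, *Eif2b5*, *Ccdc110*, *Orai3*, *Pde4dip*, *Mtap*, *Gpatch1* and *Txn2* (named after their values were seen). Of all 22350 protein-coding genes, 419 had a promoter peak. In peaks 10 kb or more from a TSS the share was 3.73% inside genes and 2.42% between genes.

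In the list of mitosis and cell cycle genes, 3 of 88 genes (3.41%) had a peak at this distance. Beside *Aurkb* these were *Kif2c*, a kinesin that depolymerises microtubules at centromeres, and *E2f2*, a transcription factor of the G1 to S transition. The *Kif2c* peak scored 18.69 and lay 6906 bp upstream, and the *E2f2* peak scored 11.94, below the lower quartile of 13.9, and lay 8679 bp upstream. Each held the CTCF word with 1 mismatch in its central 500 bp. The *E2f2* peak also contained the 94 bp site of a primer pair that the study used for CHART-qPCR, and the CTCF word lay inside that site. The study shows a peak that it places at the *E2f2* promoter, whereas the distance here is to the nearest annotated protein-coding TSS. It also reports that every locus selected for CHART-qPCR was borne out in an independent experiment. In the second *E2f2* sequence below the primer sites are in capitals.

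*Kif2c*, chr4:116862248-116862300, minus strand: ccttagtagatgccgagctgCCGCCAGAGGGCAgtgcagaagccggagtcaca
*E2f2*, chr4:135719568-135719620, plus strand: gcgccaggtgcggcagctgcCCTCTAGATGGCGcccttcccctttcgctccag
*E2f2*, chr4:135719527-135719620, plus strand: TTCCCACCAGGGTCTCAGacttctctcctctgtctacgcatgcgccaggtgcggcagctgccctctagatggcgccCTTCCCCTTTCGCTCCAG

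In the list of neural lineage transcription factors, 3 of 103 annotated genes (2.91%) had such a peak. *Myt1*, a zinc finger factor of neuronal differentiation, had 2, one 1836 bp downstream in intron 1 (score 28.01) and one 3884 bp upstream (score 17.91), so that they stood on either side of the TSS. *Nkx2-2* had a peak over coding sequence (16.55) and *Sox8*, a factor of neural crest and glia, a peak 4705 bp downstream between genes (12.46). The axon guidance list had 1 of 76 genes (1.32%), *Nrp1*, a receptor for semaphorins, with a peak in intron 1, 4072 bp downstream, at a score of 32.26. No gene of 72 voltage-gated ion channel genes and none of 83 genes of Wnt, TGF-beta and BMP signalling had such a peak, against the background of 1.23%. In the chromatin and DNA methylation list 2 of 79 genes (2.53%) did: *Dnmt3a*, a *de novo* DNA methyltransferase (27.06, intron 1), and *Kdm2b*, a histone demethylase (8.67, intron 4). In the list of small GTPases and their regulators 3 of 112 genes (2.68%) did: *Vav2* (19.25), *Arhgef7* (13) and *Srgap3* (12.50). In the list of synapse and transmitter release 3 of 116 genes (2.59%) did: *Syn3*, a synapsin (25.97), *Chrna1*, a nicotinic receptor subunit (18.66), and *Th*, tyrosine hydroxylase (17.09). Counts of 1 to 3 genes carry little weight, and no list was tested.

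The peak of *Th*, the rate-limiting enzyme of catecholamine synthesis, lay in intron 9 at chr7:150080609-150080980, 5124 bp downstream, and held an exact CTCF word. A CTCF ChIP primer pair of the study for *Th* had its site 37 bp outside the peak.

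*Th*, chr7:150080742-150080794, plus strand: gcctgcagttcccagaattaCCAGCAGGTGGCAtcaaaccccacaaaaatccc

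Tubulin, microtubule-associated protein and neurofilament genes were picked out after the values were seen, so their counts support nothing beyond themselves, and the background is the 1.23% of all protein-coding genes. Of 19 tubulin genes, 3 had a peak 1 to 10 kb from the TSS, and these 3 had none nearer than that. *Tubb3*, the beta-tubulin of neurons, had a peak 1126 bp upstream with a score of 39.56, and its midpoint lay in a 3′ UTR of the neighbouring gene *Mc1r*. *Tubb2b* had a peak 1232 bp upstream (39.38), which was 1344 bp wide, and *Tuba1b* a peak 5795 bp downstream between genes (25.84). *Mtap1b* (27.63, 8689 bp upstream) and *Mtap1a* (12.78, 1084 bp upstream), which encode microtubule-associated proteins of axons and dendrites, accounted for 2 of the 4 annotated genes named *Mtap1* or *Mtap2*. *Nefh*, which encodes the heavy neurofilament subunit, had a peak 5963 bp upstream (12.07) and was 1 of 3 neurofilament genes. The AP-1 word was in the peaks of *Tubb3*, *Tubb2b*, *Mtap1b*, *Mtap1a* and *Nefh*, and the CTCF word was in that of *Tuba1b*. The MAZ word was in those of *Tubb3*, *Mtap1a*, *Nefh* and *Tuba1b*. Over all 291 peaks the shares were 16.8% for AP-1, 24.1% for CTCF and 25.1% for MAZ. Because the genes were picked after the values were seen, nothing is read from these words.

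Primer sites that the study used for POU3F3 ChIP overlapped 2 of the strongest peaks, those of *Cnga3* and *Fam92b*. Both sites are 60 bp long and are shown with the primer sites in capitals. The pair in the *Cnga3* peak carries the name *Chga3* in the primer list. No ChIP measurement was analysed here.

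*Cnga3*, chr1:37276899-37276958, plus strand: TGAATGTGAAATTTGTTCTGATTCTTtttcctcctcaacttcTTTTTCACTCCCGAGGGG
*Fam92b*, chr8:122702673-122702732, plus strand: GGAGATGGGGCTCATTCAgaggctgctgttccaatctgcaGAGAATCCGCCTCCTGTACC

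The study lists genes that differed after transient or stable *Dali* knockdown in N2A cells, lists that were chosen on its own samples and are not independent evidence. The nearest gene was on such a list for 27 of the 291 peaks (9.28%, 6.46 to 13.2%). By gene this was 26 of 275 (9.45%), against 5.82% of all protein-coding genes and 40 of 419 genes with a peak within 1 kb (9.55%). Many protein-coding genes are not expressed in a given cell line and could not have entered such a list, and this was not accounted for. On the list of the transient knockdown were 5 genes: *Cnga3* (73.85), *Fam92b* (54.02), *Kif2c* (18.69), *Cbs* (14.50), which encodes an enzyme of cysteine synthesis, and *E2f2* (11.94). The stable lists held 21 others, among them *Nfkbia* (58.94), *Tubb2b* (39.38), *Rbms2* (36.85), *Cyth3* (35.87), *Sparc* (17.89), *Th* (17.09) and *Gchfr* (16.48). No gene with a peak at this distance was on both kinds of list, and 1 of the 419 genes with a peak within 1 kb was. Of those 419 genes, 14 were on the transient list. The share of all protein-coding genes on the transient list, or on both kinds, was not computed, so nothing is read from these counts. Only the presence of a gene on a list was used, not its direction or size of change.

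Over all chromosomes 20.4% of the peaks were of this kind. Chromosome 4 held 25 such peaks among its 75 (33.3%, 23.7 to 44.6%), the highest share of any chromosome. Chromosome 16 held 3 of 28 (10.7%, 3.71 to 27.2%). Chromosome 4 was picked as the highest of 20, so its interval does not mark an excess. The amount of genome at this distance is not given by chromosome here. None of the 16 peaks on the X chromosome was of this kind, and with so few peaks the interval of that share reaches 19.4%.

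The longest exact match to any of the 10 *Dali* capture oligonucleotides had a median of 10 bases (9 to 10) in the peaks and 9 bases in their flanks. A match of at least 12 bases was found in 20 peaks (6.87%, 4.49 to 10.4%) and in 16 of 581 flanks (2.75%, 1.70 to 4.43%), and in 3.06% of peaks within 1 kb of a TSS. In peaks 10 kb or more away the share was 8.39% inside genes and 7.71% between genes, both above that of the peaks described here. 10 of the 20 involved the same oligonucleotide. The longest, of 14 bases, was ACACAGAGACAGAG in the stronger peak of *Slc4a8*, and the other peak of that gene held 13 bases of the same stretch, CACAGAGACAGAG. These matches are short beside the oligonucleotides, and whether they contributed to capture was not tested.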

How the data were processed

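The deposited list of *Dali* CHART-Seq peaks was used. Alignment was to mm9 (Bowtie, keeping reads with a single alignment) and peak calling by MACS2, against input and *lacZ* pull-downs and with a filter on the q value. The authors deposited the peaks common to both comparisons as 1 list for the 3 pull-downs, with an unnamed score and no header. Distances ran from the peak midpoint to the nearest of 45940 TSSs of protein-coding transcripts (GENCODE M1, chromosomes 1 to 19 and X). Sequence came from the mm9 genome. Windows of 500 bp tiled the genome, and windows over 50% N were left out. The software was matplotlib 3.10.9, scipy 1.17.1, pandas 2.3.3 and numpy 2.4.6 in Python 3.11.15, and the functions were tested on simulated data. Named were the 10 highest scores, the 3 widest peaks, peaks at the thresholds, with primer sites, with an exact CTCF word (8 by score), of genes with 3 or more peaks, and of genes on 8 lists or the transient knockdown list. The members and lists were chosen with earlier results of these data known. The lists of genes changed on knockdown came from the study's supplementary sheets. Gene names follow GENCODE M1, with current names where synonyms matched. Alternatives changed the TSS set, the distance, the score filter, merging, the sequence window, the flanks and the word rule.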

Additional observations from a re-analysis of the deposited data

How the results depend on the processing

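Of 73 alternatives run for 18 results, 60 left the value within its 95% interval, or a count within 1.5 times. A change of direction could be recorded only for the difference in GC content from the flanks, and none occurred there. The score limit at the median of all peaks left 131 peaks and 126 genes. Classifying by any overlap of at least 1 bp put 33.7% of peaks in introns only. A non-coding TSS within 5 kb was found for 8.93% of peaks. The stricter CpG criteria were met by 1.38%. The CTCF word was in 8.93% of peaks with no mismatch allowed and in 9.97% within the central 100 bp, where the Sp1 word was in 0.687%, the MAZ word in 6.19% and the TAATTA word in 2.40%. The MAZ word was in 32.3% of whole peaks. These shares differ by construction, since a smaller window holds fewer words. The single control oligonucleotide gave a median longest match of 6 bases, against 10 bases for the 10 *Dali* oligonucleotides, a larger set. The transient knockdown list alone, with 284 entries, gave 1.72% of peaks. The share of all protein-coding genes on that list was not computed, so nothing is read from this value. Repeat content was not run, and neither was GC content without repeats, because no chromosome of the genome sequence used here is soft-masked. The list combines the pull-downs, so none could be left out, and the depth is unknown. No paired analysis was possible because the list holds no value for a single pull-down.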
